A study of Mus musculus with 16 samples.

Results

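The levels of 9 voltage-gated sodium channel genes were followed through the dorsal root ganglia (DRGs) of mice with a nerve injury, with the antidepressant desipramine (DMI), with both or with neither. They comprised 7 genes for the pore-forming α subunits (Scn1a, Scn2a, Scn3a, Scn8a, Scn9a, Scn10a and Scn11a) and 2 for accessory β subunits (Scn2b and Scn4b), and were taken by symbol from the 52636 genes listed. All 9 were among the 21371 genes with enough counts to be tested. Bulk RNA was sequenced from 16 male C57BL/6J mice aged 3 to 4 months, with 1 mouse per library and 4 mice per group. Sham-Saline mice had sham surgery and vehicle, SNI-Saline mice had tibial spared nerve injury (SNI) and vehicle, Sham-DMI mice had sham surgery and DMI at 15 mg/kg, and SNI-DMI mice had both. Injections were intraperitoneal, 2 times per day for 3 weeks, and began 4 weeks after surgery by the labels and the results text of the study, or 4 months after it by the methods text. In this model the common peroneal and sural nerves are tied and cut and the tibial nerve is left intact, so the L3-6 ganglia that were collected hold neurons with cut axons beside neurons with intact ones.

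Voltage-gated sodium channels open when the membrane depolarises and carry the inward current that starts and propagates the action potential. A single large α subunit forms the pore, and small β subunits with a single membrane span alter its gating and its place in the membrane. In sensory neurons the channels are sorted by their block with the puffer fish toxin tetrodotoxin: Nav1.8 (from Scn10a) and Nav1.9 (from Scn11a) are resistant and belong mostly to small pain-sensing neurons, or nociceptors, while the products of the other 5 α genes are sensitive. Loss of Nav1.7, the product of Scn9a, abolishes pain in people, and tricyclic antidepressants such as DMI are themselves blockers of sodium channels.

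The residue that sets most of this difference lies in the first of the 4 pore loops, and its codon parts the α genes shown here as the toxin does. The stretches of 6 α genes are given because that split is used to group the genes in what follows. They were read from the transcripts of GENCODE M21 on GRCm38, each from exon 9 of the longest coding transcript, in the sense of the gene and 5′ to 3′, and capitals mark the codon of that residue.

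Scn2a (chr2:65688424-65688453, plus strand): atgactcaagacTTCtgggaaaacctttat
Scn3a (chr2:65521798-65521827, minus strand): atgactcaagacTACtgggagaacctttac
Scn8a (chr15:100971626-100971655, plus strand): atgactcaggacTACtgggagaacttatac
Scn9a (chr2:66548986-66549015, minus strand): atgactcaggacTACtgggagaacctttat
Scn10a (chr9:119666372-119666401, minus strand): atgacgcaggacTCCtgggaacggctgtac
Scn11a (chr9:119805665-119805694, minus strand): atgactcaagacTCCtgggagaagctttat

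The codon encodes an aromatic residue in these 4 genes of sensitive channels (phenylalanine in Scn2a, tyrosine in Scn3a, Scn8a and Scn9a) and serine in Scn10a and Scn11a. Scn3a, Scn2a, Scn1a and Scn9a lie in this order within 1 cluster on chromosome 2, Scn10a and Scn11a are neighbours on chromosome 9, Scn2b and Scn4b are neighbours elsewhere on chromosome 9, and Scn8a stands alone on chromosome 15. Scn1a, Scn2a and Scn3a shared 81.0% to 83.1% of their aligned coding bases, against 60.7% between Scn10a and Scn11a. Of the 50-base words in their transcripts, 4.03% to 6.49% of those of Scn1a, Scn2a, Scn3a and Scn9a also occurred in another gene, so a small part of their reads could be assigned to a paralog or dropped. An antisense gene, Gm13629, overlapped 180 exon bases (1.41%) of Scn9a and was listed at 1.65 to 3.99 CPM (counts scaled to a common library size). The use of strand in the counting is not stated.

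Counts on genes ranged between 41194238 and 73920332 read pairs per library, and the 9 channel genes held 294 to 94893 counts each. In this scaling (TMM) 1 CPM is 1 count in 1000000, and a gene is called where its p, adjusted over all tested genes, is under 0.1. By its labels each library comes from spinal cord tissue with dorsal root ganglia as the cell type. Summed over 6 markers of sensory ganglion neurons, the libraries held 2900 to 3620 CPM, against 10.4 to 15.7 CPM over 8 markers of spinal cord cells, most of it from Aqp4, a water channel that is not confined to the cord. Chat, Mnx1 and Lhx1, which mark spinal motor neurons and interneurons, reached at most 0.122 CPM. Of the other markers, Olig2, Slc6a5 and Mog reached 0.29, 0.52 and 0.75 CPM, and Pax2 held 0.90 to 2.61 CPM. Markers of injured neurons summed to 31.8 to 43.0 CPM in Sham-Saline and 166 to 190 CPM in SNI-Saline. The labels number the DMI libraries 17 to 24, the SNI-Saline libraries 33 to 36 and the Sham-Saline libraries 37 to 40, and do not say what the numbers mark. An effect of what they mark cannot be told apart from those of drug and injury.

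Per kilobase of exon, the resistant pair Scn10a and Scn11a stood above every other α gene in all 4 groups. In Sham-Saline, Scn10a was highest at 158 ± 13.3 CPM per kilobase (SD, n = 4), followed by Scn11a at 115 ± 12.9 and by Scn4b, whose β4 subunit has been tied to resurgent current, at 99.0 ± 3.71. The ranges of Scn11a and Scn4b overlapped in each group. Scn9a came next at 46.7 ± 4.22 CPM per kilobase, and then Scn8a, which encodes Nav1.6, the channel of the nodes of Ranvier, at 20.4 ± 1.52. Scn1a (Nav1.1), a channel of myelinated sensory neurons, stood at 16.2 ± 1.51 and overlapped Scn2b (β2), at 14.6 ± 1.62 CPM per kilobase. Scn2a (Nav1.2), mainly a channel of central neurons, was at 2.22 ± 0.161, and Scn3a (Nav1.3), mainly a channel of the embryo, was lowest at 0.819 ± 0.0774 CPM per kilobase.

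**Figure D1:**
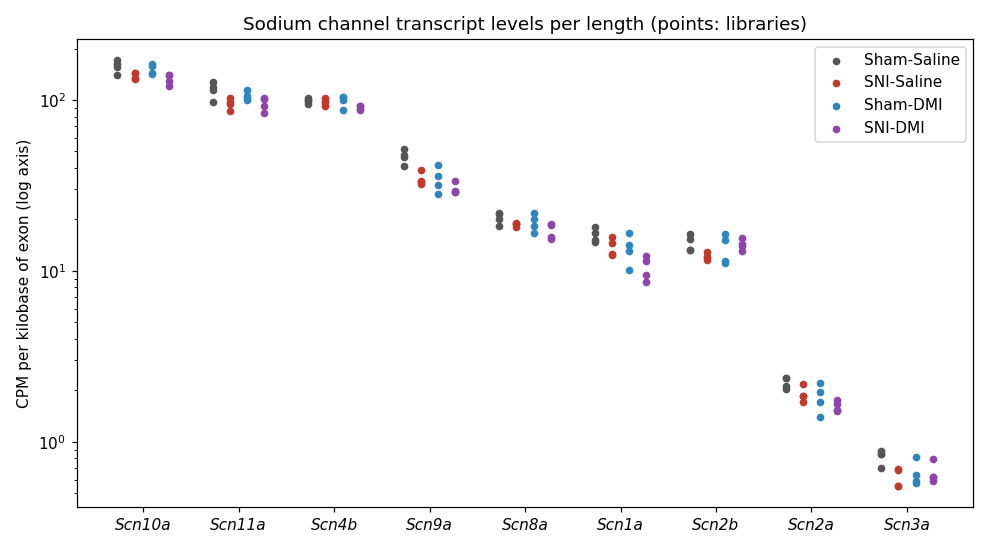
Level of each sodium channel gene per kilobase of exon on a log axis, with 1 point per library and a colour per group. Scn10a is highest and Scn3a lowest in each group, and the only neighbours that change places are Scn11a with Scn4b and Scn1a with Scn2b.

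The order of the means was the same in the other groups except among neighbours. Scn4b stood just above Scn11a in SNI-Saline, at 97.6 against 95.4 CPM per kilobase, with overlapping ranges. Scn2b stood above Scn1a in Sham-DMI, at 13.6 against 13.5 with overlapping ranges, and in SNI-DMI, at 14.3 against 10.4 CPM per kilobase with ranges apart. Summed per kilobase over the 7 α genes, Scn10a and Scn11a made up 75.9% ± 0.758 of the total in Sham-Saline mice (SD, n = 4) and 78.8% ± 1.61 in Sham-DMI mice, and after injury 77.1% ± 1.18 with saline and 79.2% ± 1.74 with DMI. Scn9a made up 13.0% ± 0.224, 10.4% ± 0.954, 11.4% ± 0.632 and 10.5% ± 0.531 in the same order, so its highest share in each of the other groups (11.5%, 12.1% and 10.8%) lay below its lowest share in Sham-Saline (12.7%). These shares are given as a description, and the trends on GC content and exon length, described further on, were not removed from them.

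**Figure D2:**
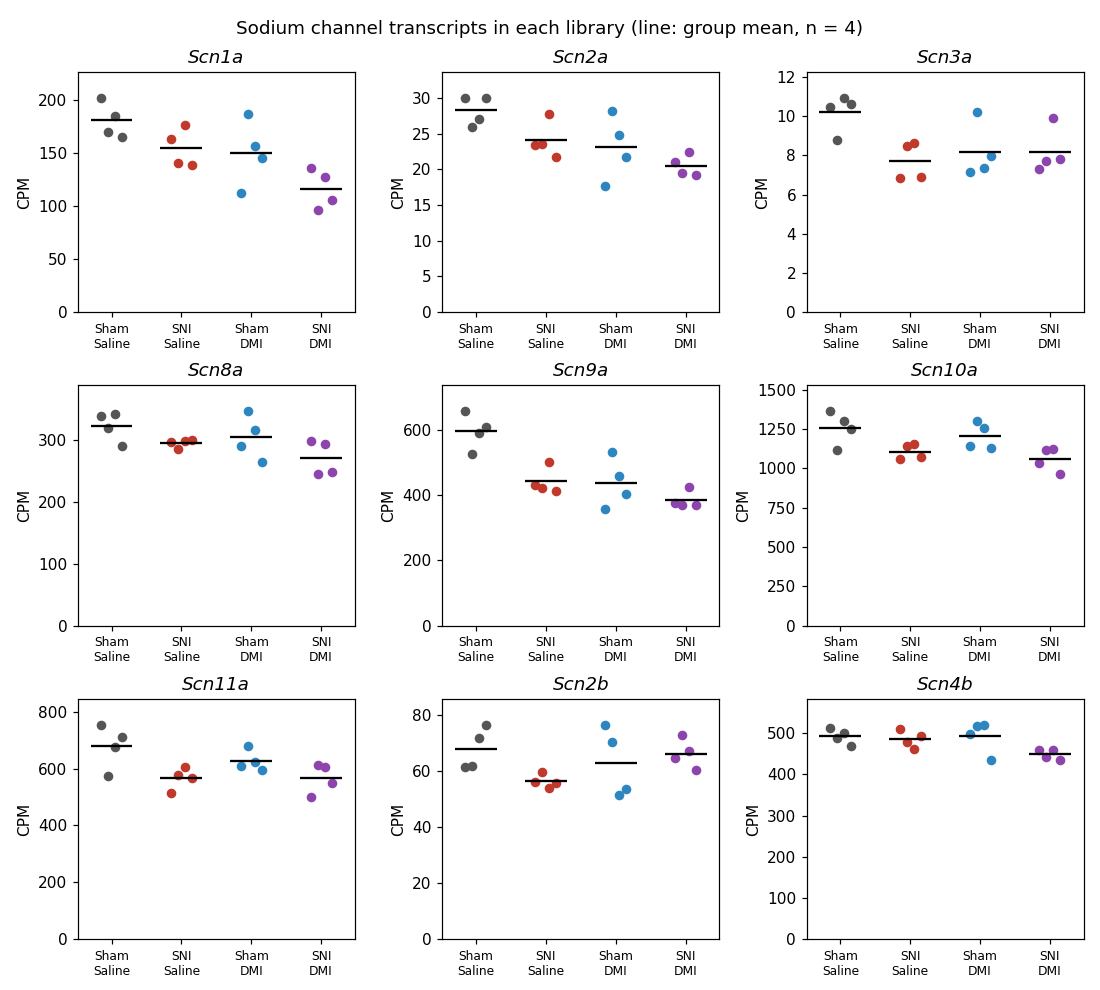
CPM of the 9 sodium channel genes, with 1 point per library, a horizontal line at each group mean (n = 4) and every axis starting at 0. For Scn9a the Sham-Saline libraries hold 527 to 658 CPM and all 8 libraries with injury hold at most 500 CPM, while Scn4b stays between 434 and 521 CPM.

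The comparison of SNI-Saline with Sham-Saline asks how a lasting nerve injury alters these transcripts without drug. Scn9a had the lowest log2 fold change as reported, although with the trends on GC content and exon length removed, described further on, Scn2b (-0.29, not called) was below it (-0.26). The Sham-Saline libraries held 658, 527, 592 and 608 CPM and the SNI-Saline libraries 431, 423, 500 and 413 CPM. All 4 injured mice lay below all 4 sham mice, and the log2 fold change was -0.43 ± 0.10 (SE, 95% interval -0.64 to -0.22, adjusted p = 0.0224 with edgeR's quasi-likelihood test), a level 0.741 times that of sham. Scn3a, the lowest of the genes, also fell: it was at 10.5, 8.79, 11.0 and 10.6 CPM in Sham-Saline and at 6.85, 8.47, 8.61 and 6.88 CPM in SNI-Saline. These groups did not overlap either, although Sham-Saline replicate 2 came within 0.18 CPM of the highest injured mouse, and the log2 fold change was -0.41 ± 0.13 (adjusted p = 0.0682). Nav1.3 is known from work in rats as a channel that returns in sensory neurons after their axons are cut, and here its transcript was lower in the whole ganglion of injured mice.

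Of the resistant pair, Scn11a (Nav1.9, a channel of persistent current near the resting potential) fell after injury. It was at 755, 575, 677 and 711 CPM in Sham-Saline and at 513, 579, 607 and 566 CPM in SNI-Saline, so the groups overlapped through Sham-Saline replicate 2. The log2 fold change was -0.26 ± 0.08 (adjusted p = 0.0616). Scn10a (Nav1.8, the main carrier of the nociceptor's action potential) was at 1364, 1114, 1299 and 1247 CPM in Sham-Saline and at 1057, 1144, 1153 and 1072 CPM in SNI-Saline, with a log2 fold change of -0.18 ± 0.07 that missed the threshold (adjusted p = 0.111). Again Sham-Saline replicate 2 alone lay within the range of the injured mice.

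The other 5 genes did not pass the test of injury. Scn1a had a log2 fold change of -0.23 (95% interval -0.50 to 0.05), Scn2a of -0.23 (-0.46 to 0.00) and Scn8a of -0.13 (-0.30 to 0.04), and in all 3 the groups overlapped. Scn2b was at 61.4, 62.0, 71.8 and 76.7 CPM in Sham-Saline and at 56.1, 59.7, 54.2 and 56.0 CPM in SNI-Saline. Its groups were apart by 1.7 CPM, and its log2 fold change of -0.27 ± 0.11 missed the threshold (adjusted p = 0.136). Scn4b had a log2 fold change of -0.02 (95% interval -0.14 to 0.10), which turned to 0.03 when the libraries were scaled on 8 genes of all neurons.

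In all, 3 of the 9 genes were called lower after injury and none higher, where 6.18% of all tested genes were called lower and 12% in either direction. The estimates of all 9 were negative, except that Scn4b turned with the scaling on neuronal genes, and their median was -0.23 against -0.001 over all genes tested. The groups did not overlap in 3 of the 9 (Scn9a, Scn3a and Scn2b), where they did not in 15.4% of all genes. In bulk tissue, fewer neurons and less RNA per neuron cannot be told apart. The summed markers of all neurons held 4790 to 5140 CPM in Sham-Saline and 4600 to 5200 CPM in SNI-Saline, and 2 of these 8 genes were called lower (Syt1 at -0.28, adjusted p = 0.0428, and Elavl4 at -0.20, adjusted p = 0.0955). The markers of macrophages held 115 to 134 and 151 to 287 CPM in the same order (5 of 6 genes called higher), those of satellite glia 2380 to 2640 and 2750 to 3130 CPM (1 of 6 called higher) and those of Schwann cells 3920 to 5740 and 5340 to 6390 CPM (none called, with all 6 estimates above 0). The part of these cells in the values of the channels was not tested. With the libraries scaled on the 8 neuronal genes, Scn9a kept its call at a log2 fold change of -0.37 (adjusted p = 0.0462), and Scn3a (-0.35, adjusted p = 0.142) and Scn11a (-0.20, adjusted p = 0.15) did not.

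**Figure D3:**
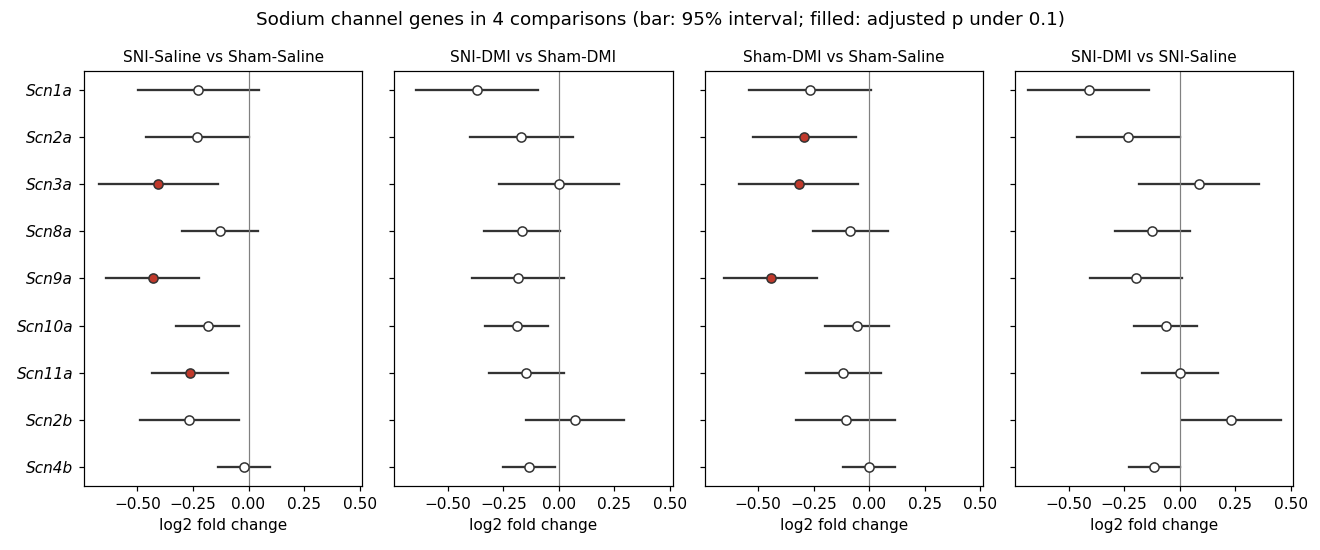
Log2 fold change of each sodium channel gene in the 4 pairwise comparisons, with bars for the 95% interval and filled points for an adjusted p under 0.1. Scn9a is filled for injury without drug (-0.43) and for DMI after sham surgery (-0.44), and no gene is filled in the comparisons of SNI-DMI with either group.

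The trends of level on gene length and base composition differed between the groups. Scn1a, Scn2a, Scn3a and Scn9a have long exons in sum (longer than in 94.9% to 96.7% of tested genes) and low GC content (13.3% to 18% of tested genes have less), while Scn10a, Scn11a, Scn2b and Scn4b lie at 42.8% to 77.5% for GC. Each library had its own trend of level on GC content and exon length. At Scn1a, Scn2a, Scn3a and Scn9a the fitted trend alone differed by -0.17 to -0.14 (log2) between SNI-Saline and Sham-Saline. Between Sham-DMI and Sham-Saline it differed by -0.26 to -0.22 at these genes. At Scn10a and Scn11a it differed by -0.09 to -0.01 in the same comparisons. Scn8a has exons longer in sum than 98.4% of tested genes, and 57.5% have less GC. Its fitted trend differed by -0.11 for injury and -0.14 for DMI under sham. With the trends removed, Scn9a kept its call for injury at a log2 fold change of -0.26 (adjusted p = 0.0396). Scn3a, at -0.24 (adjusted p = 0.256), and Scn11a, at -0.24 (adjusted p = 0.105), lost theirs. Read pairs without an annotated feature made up 8.67% to 9.44% of all in Sham-Saline mice and 7.10% to 8.79% in Sham-DMI mice, and after injury 7.73% to 9.14% with saline and 7.42% to 8.38% with DMI. The part of RNA quality or library preparation in these differences was not tested. Over 9 alternatives the adjusted p for injury ran from 0.00144 to 0.0555 for Scn9a, from 0.0202 to 0.262 for Scn3a and from 0.0253 to 0.15 for Scn11a. Scn9a was called lower without any 1 of the 16 libraries, and Scn3a and Scn11a lost their calls without replicate 1, 3 or 4 of Sham-Saline, and without replicate 1, 2 or 4 of SNI-Saline.

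**Figure D4:**
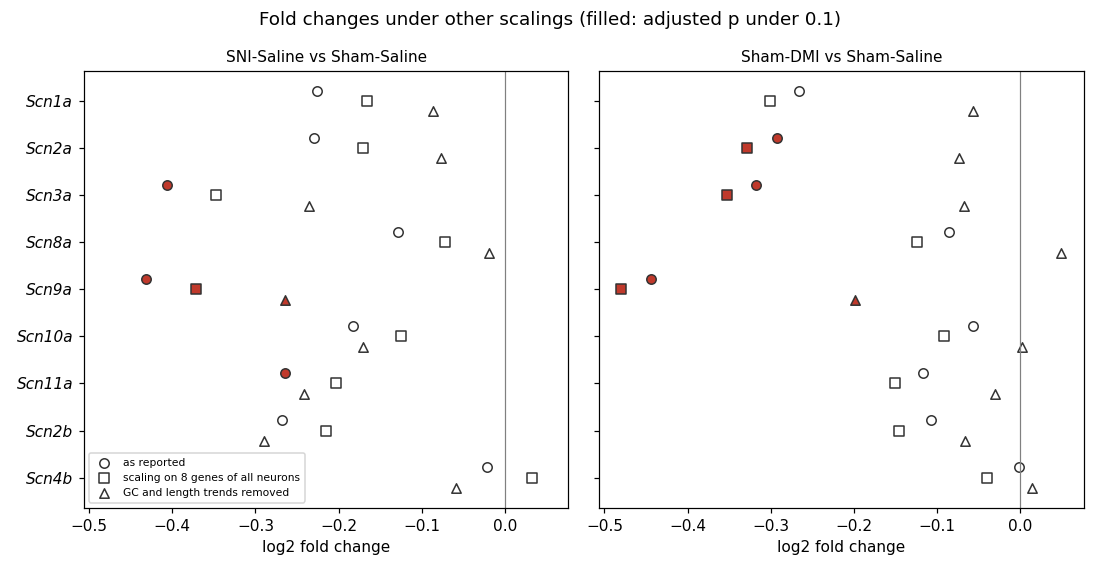
Log2 fold changes for injury without drug (left) and for DMI after sham surgery (right) as reported, with scaling on 8 neuronal genes, and with the trends on GC content and exon length removed. Filled symbols have an adjusted p under 0.1. Scn9a is the only gene filled under all 3 in both comparisons, and its estimates move from -0.43 to -0.26 and from -0.44 to -0.20 when the trends are removed.

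The comparison of Sham-DMI with Sham-Saline gives the effect of the drug in mice without the injury. Scn9a fell to 359, 532, 459 and 404 CPM in Sham-DMI from the 527 to 658 CPM of Sham-Saline. Sham-DMI replicate 2 lay just above the lowest Sham-Saline mouse and the other 3 below all of them, and the log2 fold change was -0.44 ± 0.10 (95% interval -0.65 to -0.24, adjusted p = 0.00694). By exact two-sided permutation its p was 0.0571. Scn2a fell as well, from 29.96, 26.0, 27.1 and 30.1 CPM to 17.7, 28.1, 24.9 and 21.7 CPM, with a log2 fold change of -0.29 ± 0.11 (adjusted p = 0.0781). Scn3a fell from 8.79 to 11.0 CPM in Sham-Saline to 7.17, 10.2, 7.34 and 7.95 CPM, with a log2 fold change of -0.32 ± 0.13 (adjusted p = 0.0978). In Scn2a and Scn3a, as in Scn9a, Sham-DMI replicate 2 lay among the Sham-Saline mice and the other 3 below them.

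The remaining 6 genes did not pass. Scn1a was at 112, 186, 157 and 145 CPM in Sham-DMI, with a log2 fold change of -0.27 (95% interval -0.54 to 0.01, adjusted p = 0.175). The resistant pair differed little from Sham-Saline, with -0.06 for Scn10a (95% interval -0.20 to 0.09) and -0.12 for Scn11a (-0.29 to 0.05). Scn8a had -0.08 (-0.25 to 0.09), Scn2b -0.11 (-0.33 to 0.12) and Scn4b 0.00 (-0.12 to 0.12). Sham-DMI was the most variable group for 7 of the 9 genes, by the coefficient of variation: that of Scn2b was 19.5% there, from 51.7, 53.6, 70.6 and 76.4 CPM, against 4.13% in SNI-Saline.

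So 3 of the 9 genes were called lower and none higher with DMI in sham mice, where 11.9% of all genes were called lower and 23.4% in either direction, and their median log2 fold change was -0.12 against -0.021 over all genes. In none of the 9 were the groups apart, where they were in 17.1% of all genes. All estimates were below 0 as reported, but with the GC and length trends removed Scn8a (0.05), Scn10a (0.003) and Scn4b (0.02) were above 0, and Scn4b was also at 0.01 with upper-quartile scaling. Scn9a kept its call with the trends removed, at -0.20 (adjusted p = 0.0386), in each of 9 alternatives (adjusted p from 0.000458 to 0.0438) and without any 1 of the 16 libraries. With scaling on 8 neuronal genes it was at -0.48, but 2 of those 8 were themselves called higher with DMI here, and none lower. Scn2a, at -0.07 (adjusted p = 0.591), and Scn3a, at -0.07 (adjusted p = 0.748), lost theirs with the trends removed, and both lost them without Sham-DMI replicate 1 or 4 or Sham-Saline replicate 1, 3 or 4, among other libraries. Summed markers of injured neurons were also higher with DMI after sham surgery (47.2 to 75.8 CPM against 31.8 to 43.0, 4 of 6 genes called). Atf3, Sprr1a, Ecel1, Npy and Gpr151 were each highest in Sham-DMI replicates 2 and 4, and Gal in replicate 1. Sprr1a was at 1.81, 12.2, 1.67 and 9.19 CPM in Sham-DMI replicates 1 to 4, against 0.62 to 2.06 CPM in Sham-Saline. The part of these markers in the values of the channels was not tested.

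The comparison of SNI-DMI with SNI-Saline asks what the drug changed in injured mice. None of the 9 genes was called with edgeR on all 16 libraries, where 2.93% of all genes were, and 3 had an unadjusted p under 0.05, where 18.5% of all genes did. Scn1a was called with DESeq2 (adjusted p = 0.0362), with edgeR on the 8 libraries of the comparison (0.0638) and with edgeR without the filter on low counts (0.069). Scn1a was at 163, 140, 176 and 139 CPM in SNI-Saline and at 136, 96.1, 128 and 106 CPM in SNI-DMI. The groups were apart by 3.08 CPM. The exact two-sided permutation p was therefore 0.0286, the smallest that 4 mice against 4 can give, as it was for Scn2b and Scn4b. The log2 fold change of Scn1a was -0.41 ± 0.13 (95% interval -0.68 to -0.14, adjusted p = 0.119, and 0.0362 to 0.219 over 9 alternatives). Without Sham-DMI replicate 1 or 2, libraries of neither group, its adjusted p was 0.0455 or 0.0826. Scn2b went the other way: SNI-DMI held 64.9, 72.9, 67.2 and 60.6 CPM, all above the 54.2 to 59.7 CPM of SNI-Saline and within the range of Sham-Saline apart from 1 mouse just below it. Its log2 fold change was 0.23 ± 0.11 (95% interval 0.01 to 0.46, adjusted p = 0.25, and 0.0606 to 0.36 over 9 alternatives), and it was called with edgeR on the 8 libraries of the comparison, the lowest of these.

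Scn4b was at 511, 478, 462 and 493 CPM in SNI-Saline and at 460, 443, 460 and 434 CPM in SNI-DMI, apart by 2.1 CPM, with a log2 fold change of -0.11 (95% interval -0.23 to 0.00, adjusted p = 0.279). In all, 3 of the 9 genes (Scn1a, Scn2b and Scn4b) did not overlap, where 13.3% of all genes did not. Scn9a was at 376, 368, 426 and 371 CPM in SNI-DMI, 1 mouse of which lay within the range of SNI-Saline, with a log2 fold change of -0.20 (-0.41 to 0.01, adjusted p = 0.293). Scn2a had -0.23 (-0.46 to 0.00, adjusted p = 0.269) and Scn8a -0.12 (-0.29 to 0.05). Scn10a, at -0.06 (-0.20 to 0.08), and Scn11a, at 0.00 (-0.17 to 0.17), lay near 0, and Scn3a was at 0.09 (-0.18 to 0.36). The genes that were lower after injury without drug, Scn9a, Scn3a and Scn11a, were thus not called higher with DMI in injured mice. Both comparisons use the SNI-Saline libraries.

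Set against Sham-DMI, SNI-DMI gives the effect of injury under the drug. None of the 9 genes was called, where 0.402% of all genes were, and 3 had an unadjusted p under 0.05, where 12.1% of all genes did. DESeq2 called none of the 9 either. Scn10a was at 1144, 1302, 1259 and 1130 CPM in Sham-DMI and at 1036, 1115, 1122 and 966 CPM in SNI-DMI. It was the 1 gene of the 9 without overlap (5.04% of all genes), with a log2 fold change of -0.19 ± 0.07 (adjusted p = 0.284, and 0.0965 with the trends removed, the lowest of 9 alternatives, which reached 0.449). Scn1a had the largest estimate, -0.37 ± 0.13 (adjusted p = 0.276), and without Sham-DMI replicate 1 it was -0.50 (adjusted p = 0.0549). Scn4b was called without Sham-DMI replicate 4, at -0.20 (adjusted p = 0.0929). Scn9a was at -0.19 (95% interval -0.39 to 0.02), Scn3a at 0.00 (-0.27 to 0.27) and Scn11a at -0.15 (-0.32 to 0.02).

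Whether the drug acted differently in injured and sham mice was tested by the difference of the 2 DMI effects, and no gene of the 9 passed, nor did any of the 21371 genes with edgeR (0%), of which 1692 (7.92%) had an unadjusted p under 0.05, as had 2 of the 9. DESeq2 called 16 genes in all and none of the 9. The largest differences among the channels were 0.41 ± 0.18 for Scn3a (95% interval 0.03 to 0.79, unadjusted p = 0.0378, adjusted p = 0.619) and 0.34 ± 0.15 for Scn2b (0.02 to 0.66, unadjusted p = 0.0358, adjusted p = 0.619). For Scn9a the difference was 0.25 (-0.05 to 0.54, adjusted p = 0.66), so its effects of -0.44 and -0.20 are not shown to differ.

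Averaged over both treatments, 4 of the 9 genes were lower with injury, where 8.43% of all genes were called lower and 16.1% in either direction. These were Scn9a at -0.31 ± 0.07 (adjusted p = 0.0153), Scn1a at -0.30 ± 0.09 (adjusted p = 0.0497), Scn11a at -0.21 ± 0.06 (adjusted p = 0.0343) and Scn10a at -0.19 ± 0.05 (adjusted p = 0.0254). In this average the resistant pair kept its estimates with the trends removed, at -0.21 for Scn10a (adjusted p = 0.0128) and -0.20 for Scn11a (adjusted p = 0.0356), where Scn9a was at -0.19 (adjusted p = 0.0193). Over 8 alternatives the adjusted p ran from 0.00437 to 0.0773 for Scn10a, from 0.00975 to 0.112 for Scn11a, from 0.000814 to 0.0345 for Scn9a and from 0.0145 to 0.112 for Scn1a. Scn9a, Scn10a and Scn11a were called lower without any 1 of the 16 libraries. Scn1a was not called without Sham-Saline replicate 1, SNI-Saline replicate 2 or Sham-DMI replicate 2 or 3.

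Averaged over both surgeries, 3 of the 9 genes were lower with DMI, where 15.8% of all genes were called lower and 30.6% in either direction. They were Scn1a at -0.34 ± 0.09 (adjusted p = 0.0137), Scn9a at -0.32 ± 0.07 (adjusted p = 0.00378) and Scn2a at -0.26 ± 0.08 (adjusted p = 0.0216), all of the sensitive group. All 3 were called without any 1 of the 16 libraries. With the trends removed Scn1a was at -0.17 (adjusted p = 0.096), Scn9a at -0.12 (adjusted p = 0.0619) and Scn2a at -0.09 (adjusted p = 0.312). Over 8 alternatives the adjusted p reached at most 0.096 for Scn1a, 0.0666 for Scn9a and 0.313 for Scn2a. Scn10a, at -0.06 (95% interval -0.16 to 0.04), and Scn11a, at -0.06 (-0.18 to 0.06), were not called.

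Of 4 further genes of the family, 3 were called lower after injury without drug and none higher. Of all tested genes, 6.18% were called lower and 12% in either direction. Scn7a, an atypical channel of glia and neurons that senses sodium, fell from 605 to 721 CPM to 488 to 557 CPM (-0.30, adjusted p = 0.0332), Nalcn, the sodium leak channel, from 74.2 to 87.5 CPM to 66.0 to 70.9 CPM (-0.28, adjusted p = 0.0282), and Scn3b, which encodes β3, from 118 to 146 CPM to 108 to 119 CPM (-0.23, adjusted p = 0.0757). These 3 were not called with the trends removed (adjusted p = 0.131, 0.217 and 0.158). Scn4a, the channel of skeletal muscle, at -0.07 (adjusted p = 0.725), did not pass. With DMI after sham surgery Scn7a (-0.30, adjusted p = 0.0126) and Nalcn (-0.28, adjusted p = 0.00961) were lower, and neither was called with the trends removed (-0.04 and -0.06). Here 11.9% of all genes were called lower and 23.4% in either direction. Scn3b (-0.10) and Scn4a (-0.04) did not pass there. None of the 4 was called for DMI in injured mice or for injury under DMI, where 2.93% and 0.402% of all genes were.

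Of 24 genes for partners of the channels, all tested, 2 were higher and 2 lower after injury without drug, where 12% of all genes were called in either direction. Fgf11 (0.39, adjusted p = 0.0398) and Fgf13 (-0.22, adjusted p = 0.0567) encode factors that bind the tail of the α subunit, Nedd4l (-0.24, adjusted p = 0.0636) is a ubiquitin ligase that takes channels from the membrane, and S100a10 (0.19, adjusted p = 0.0679), or p11, brings Nav1.8 to it. None of these 4 calls held with the trends removed (adjusted p = 0.123, 0.105, 0.685 and 0.38). With DMI after sham surgery 2 partners were higher and 5 lower, where 23.4% of all genes were called, so in both comparisons the share of partners called was near that of all genes. The 4 with the smallest p were S100a10 (0.29, adjusted p = 0.00559), Dpysl2 (0.39, adjusted p = 0.0278), Pdzd2 (-0.29, adjusted p = 0.0301) and Nrcam (-0.23, adjusted p = 0.0427). With the trends removed, S100a10 (0.23, adjusted p = 0.0151) and Dpysl2 (0.46, adjusted p = 0.0149) kept their calls, and Pdzd2 (-0.16, adjusted p = 0.11) and Nrcam (-0.05, adjusted p = 0.649) lost theirs. Dpysl2 encodes CRMP2, which binds Nav1.7 and governs its surface level. Dpysl2 was also the only partner of the 24 called for DMI in injured mice, where 2.93% of all genes were called. It was at 0.49 (adjusted p = 0.0683, and 0.105 with the trends removed), with overlapping groups. No partner was called for injury under DMI, where 0.402% of all genes were.

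Across the 16 libraries, the 3 closest pairs of channel genes were Scn2a with Scn9a (Pearson's r = 0.95 of log2 CPM, and 0.955 about the group means), Scn1a with Scn2a (0.908 and 0.84) and Scn10a with Scn11a (0.895 and 0.827), each within a toxin group. Pairs across the groups, such as Scn9a with Scn10a (0.788 and 0.753) and Scn3a with Scn11a (0.782 and 0.705), were closer than others within the sensitive group, such as Scn1a with Scn3a (0.55 and 0.491) and Scn3a with Scn8a (0.487 and 0.348). Scn2b went with none of the others, with r from -0.202 to 0.446. These are descriptions over libraries that share group and composition effects. The trends on GC content and exon length were not removed from them, nor from the values of r that follow. Of coding genes with a mean of at least 1 CPM, those with the highest r were then taken for each channel gene. Scn9a (42.4% GC, 12.8 kilobases) was closest to Asxl3 (r = 0.987, 45.7% GC, 15.5 kilobases) and Prkg1 (r = 0.985, 41.5% GC, 10.9 kilobases), and Scn1a to Frmpd4 (r = 0.984) and Lrrk2 (r = 0.98). Scn2a was closest to Ap4e1 (r = 0.974) and Peg3 (r = 0.971), Scn3a to R3hdm1 (r = 0.903) and Plcxd3 (r = 0.886), and Scn8a to Gramd1b (r = 0.93) and Ralgapa2 (r = 0.917). Scn10a was closest to Phf24 (r = 0.967) and Arhgap21 (r = 0.941), Scn11a to Rasgrp1 (r = 0.956) and Cadm1 (r = 0.943), Scn2b to Tox2 (r = 0.939) and Rcan3 (r = 0.933), and Scn4b to Fam155a (r = 0.883) and Traf3 (r = 0.867). Of 13716 coding genes compared, 10.6% had an r over 0.8 with Scn9a, 7.66% with Scn1a, 2.06% with Scn10a and 0.146% with Scn4b, so a close match was common for Scn9a. With the mean of 8 genes of all neurons, r was 0.18 for Scn9a, 0.098 for Scn1a, 0.514 for Scn10a and 0.611 for Scn4b.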

How the data were processed

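RNA from DRGs of 16 mice (4 groups of 4, from the labels) was made into stranded mRNA libraries and sequenced in pairs of 50-base reads. The authors used the NGS-Data-Charmer pipeline and the mm10 genome, and deposited raw counts per Ensembl gene, without normalization. The submitters' processing notes name HISAT2, HTSeq and DESeq2. The 5 closing lines of unassigned reads were left out of library sizes, of which reads without a feature were 7.10% to 9.44% of read pairs. Of 52636 genes, 52403 matched GENCODE M21, the source of symbols, coordinates, lengths and sequences, and sequences of proteins were not used here.

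Genes were filtered with filterByExpr, scaled by TMM and tested by quasi-likelihood in edgeR 4.0.16 (R 4.3.3), with all 16 libraries fitted together and a coefficient for each group. A call is a Benjamini-Hochberg adjusted p under 0.1 over all 21371 genes. An SE is the absolute log2 fold change over the root of F. Single genes were also compared by exact two-sided permutation. Alternatives were no filter, at least 10 counts per library, upper-quartile scaling, scaling on 8 neuronal genes, the replicate number as a block, removal of each library's trends on GC content and exon length (mgcv 1.9.3), both together, DESeq2 1.42.0, the 8 libraries of a contrast, the study's cut-offs (an unadjusted p under 0.05 and a log2 fold change of 0.32 or more in size), and leaving out each library. The labels number replicates 1 to 4 in each group. Deviations of same-numbered libraries had r from -0.081 to 0.184 over 24 pairs, and numbers were not taken as pairs. The fit was tested on data simulated for injury without drug. Of genes given a log2 fold change of 0.32 in size 34.7% were called, and 59.2% of those given 0.6. Of all calls there, 9.93% were of unchanged genes. A gene that was not called is thus not shown to be unchanged. No libraries of the same group were duplicates: the chi-square per gene between replicates was at least 10.38. Libraries of different groups were not compared in this way. The rule named all listed family genes, some of whose results are not reported here, and of the partners up to 4 per pairwise comparison with the smallest p among the called. The members and lists were chosen with earlier results of these data known.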

Additional observations from a re-analysis of the deposited data

Results flagged for a closer look

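In SNI-DMI, replicate 3 held 425.9 CPM of Scn9a, apart from the other 3 mice of its group at 368 to 376 CPM, with a gap of 0.861 of the group's range. It was the 1 value to stand apart in this way among 36 sets of 4 (9 genes in 4 groups), where chance gives about 1 in 20.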

How the results depend on the processing

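Scn9a kept its calls for injury without drug and for DMI under sham in every alternative fit and without any 1 library. The number of the 9 genes called moved more. It is given here with the number called over all genes in parentheses. For injury without drug it was 3 as reported (2571) and 1 with scaling on neuronal genes (1656). It was also 1 with the trends removed (1044), and with the trends removed and the replicate number as a block (595). It was 6 with the 8 libraries of the contrast (3434) and 5 with DESeq2 (3390). Without 1 library it was 1 to 6 (682 to 3286), with 6 without Sham-DMI replicate 1 (3286). For DMI under SNI it was 0 as reported (626). It was 1 without a filter (568), with DESeq2 (1859) and with the study's cut-offs (1224). It was 2 with the 8 libraries (1812), and 0 to 1 without 1 library (0 to 1842). For DMI under sham it was 3 as reported (5010). It was 1 with the trends removed (4120), with the block added to this (3841), with the 8 libraries (3742) and with the study's cut-offs (2457). It was 1 to 4 without 1 library (3286 to 6094). For injury under DMI it was 0 as reported (86). It was 1 with the trends removed (216) and with the study's cut-offs (1156), and 0 to 1 without 1 library (17 to 850). For the difference of DMI effects it was 0 as reported (0), 2 with the study's cut-offs (738) and 0 to 0 without 1 library (0 to 1). For the mean effect of injury it was 4 as reported (3449), 2 with scaling on neuronal genes (2784) and 0 with the study's cut-offs (1255). Without 1 library it was 3 to 7 (2079 to 4873), with 7 without Sham-DMI replicate 1 (4873) or 4 (3985). For the mean effect of DMI it was 3 as reported (6542), 5 with scaling on neuronal genes (5517) and 3 to 3 without 1 library (5207 to 7241). The cause was not tested.

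Estimates near 0 changed sign. For injury without drug, Scn4b was at 0.033 with scaling on neuronal genes and ran from -0.038 to 0.009 without 1 library. For DMI under SNI, Scn11a was at 0 with at least 10 counts per library, -0.011 with upper-quartile scaling and -0.039 with scaling on neuronal genes, and ran from -0.041 to 0.068 without 1 library, and Scn3a ran from -0.001 to 0.152. For DMI under sham, removing the trends without and with the block gave 0.05 and 0.049 for Scn8a, 0.003 and 0.002 for Scn10a and 0.015 in both for Scn4b. Scn4b was also at 0.006 without a filter and with upper-quartile scaling, at 0.012 with DESeq2 and at 0.016 with the 8 libraries. Without 1 library Scn10a ran from -0.11 to 0.004 and Scn4b from -0.022 to 0.072. For injury under DMI, Scn3a was at -0.005 with upper-quartile scaling, -0.004 with the block and -0.007 with DESeq2, and ran from -0.095 to 0.134, and Scn2b ran from -0.013 to 0.164. For the difference of DMI effects, Scn2a was at -0.025 with the trends removed and -0.019 with the block added, and ran from -0.065 to 0.166, Scn8a from -0.117 to 0.024 and Scn10a from -0.055 to 0.044. For the mean effect of DMI, removing the trends gave 0.086 for Scn3a with or without the block, and for Scn11a 0.008, or 0.006 with the block.

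Of the pairings of replicate numbers, 5 of 24 had an r over 0.1, and 7 of 16 libraries correlated best with one of their own number. With the block alone, 3 of the 9 genes were called for injury without drug (2106 over all genes) and 3 for DMI under sham (4739). None was called for DMI under SNI (172 over all genes) or injury under DMI (70). Under every scaling tried, the median of all genes stayed between -0.055 and 0.058. The 9 genes held at least 294 counts per library, and each group held 4 mice.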
